A study of Mus musculus with 9 samples.

Results

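The 10 imprinted growth genes H19, Igf2, Meg3, Dlk1, Mest, Peg3, Cdkn1c, Plagl1, Grb10 and Ndn were followed in the arterial media of C57BL/6 mice. They were taken by gene name from 3 deposited tables, and all 10 were found among the 17093 genes present in at least 1 table. All 10 also passed the filter on low values in every comparison, Dlk1 in injured against sham arteries only through the injured libraries. The genes were proposed with measurements of these same libraries in view, that is, they were selected on their normalised counts and fold changes in the 3 comparisons used here. Their levels and fold changes are therefore given as a description, with no test. The RNA came from the femoral artery media, the layer made mostly of smooth muscle cells. In 3 inhibitor-treated libraries, arteries had been wire-injured and the mice received VS-4718, an inhibitor of focal adhesion kinase (FAK), by oral gavage for 2 weeks (2 doses of 50 mg/kg each day). In 3 injured libraries, wire-injured arteries were collected at day 14, and in 3 sham libraries the arteries came from sham controls. Citrate buffer was the vehicle, per the labels. The labels also state that arteries were stripped of fat and adventitia and that the lumen was flushed with a lysis reagent, a step meant to remove endothelium and immune cells. The labels give the age and sex of the mice for no group, and they number the replicates without saying that each is a separate animal. Model p-values therefore cover only the scatter among these libraries, and part or all of it may be technical.

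Genomic imprinting is the expression of a gene from only the maternal or only the paternal copy, set by DNA methylation laid down in the germ line at imprinting control regions. Imprinted genes lie in clusters in which a long noncoding RNA and several protein-coding genes share such a region, and many of them regulate fetal growth before falling to low levels after birth. Among the 10, H19, Meg3, Cdkn1c and Grb10 are known for expression from the maternal copy in most tissues, and Igf2, Dlk1, Mest, Peg3, Plagl1 and Ndn from the paternal copy. The counts used here do not separate the parental copies, so loss of imprinting was not measured.

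The 10 genes lie on 5 chromosomes in the GRCm38 build (GENCODE M21 annotation), 5 of them on chromosome 7. H19 (ENSMUSG00000000031, chromosome 7, 142575529 to 142578143, minus strand) and Igf2 (ENSMUSG00000048583, chromosome 7, 142650766 to 142666816, minus strand) are 72.6 kb apart. Cdkn1c (chromosome 7, 143458339 to 143461050) lies in the neighbouring imprinted cluster. Ndn (chromosome 7, 62346569 to 62350262, a gene of 1 exon) and Peg3 (chromosome 7, 6703892 to 6730431) belong to 2 other clusters of that chromosome. Dlk1 (ENSMUSG00000040856, chromosome 12, 109452823 to 109463336, plus strand) and Meg3 (ENSMUSG00000021268, chromosome 12, 109541001 to 109571726, plus strand) are 77.7 kb apart. Mest is on chromosome 6 (30723547 to 30748465), Plagl1 on chromosome 10 (13060504 to 13131694) and Grb10 on chromosome 11 (11930508 to 12038683). The strand setting of the authors' counting is not given in the sources used here. Reads of Igf2 and the antisense Igf2os, of Mest and the convergent Copg2, of Cdkn1c and Gm44732, of Ndn and Gm32061, and of Meg3 and Gm26906 therefore cannot be told apart where these genes overlap, nor can those of Igf2 and the same-strand Gm49394.

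The noncoding and coding transcripts of 4 of the genes also carry microRNAs, whose mature sequences are shown because the level of the host transcript is the only measure of them here. The sequences are from RefSeq (GRCm38.p6), with the seed, bases 2 to 8, in capitals. MiR-675 lies in an exon of H19, miR-335 in an intron of Mest, miR-483 in an intron of Igf2, and miR-1906 and miR-770 in exons of Meg3.
miR-675-5p: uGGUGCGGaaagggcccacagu
miR-675-3p: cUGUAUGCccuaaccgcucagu
miR-335-5p: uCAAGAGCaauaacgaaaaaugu
miR-335-3p: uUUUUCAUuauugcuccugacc
miR-483-5p: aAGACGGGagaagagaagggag
miR-483-3p: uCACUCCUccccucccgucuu
miR-1906: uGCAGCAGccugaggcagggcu
miR-770-5p: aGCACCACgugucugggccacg
miR-770-3p: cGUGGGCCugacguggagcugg
No 2 of these 9 mature microRNAs share a seed. The microRNAs themselves were not analysed here.

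Promoter windows from RefSeq (GRCm38.p6), running from 250 bases before to 50 bases after a start, were held for 15 starts of 8 of the genes (2 of the Mest windows overlap), and not for H19 and Cdkn1c. Both strands were searched for 3 motifs that do not overlap one another in these windows. The letters TGCCGC, the core of the site bound by the imprint-protecting zinc finger protein ZFP57, occurred in 6 of the 15 windows and in 11.6% of all 32851 promoter windows. The letters GGGGCCCC, the core read by PLAGL1, occurred in 1 of the 15, at Peg3, and in 1.08% of all windows. The letters TATAAA occurred in 1 of the 15, at Meg3, and in 13.6% of all windows. A match describes the letters of the window and does not show that a protein binds there. The windows of 3 genes that differed between the groups and hold the 3 motifs are shown 5′ to 3′ on the strand of the gene, with motif letters on either strand in capitals. GCGGCA is TGCCGC read on the other strand, and TTTATATAAA holds TATAAA on both.
Meg3 (chr12:109540746-109541045, plus strand): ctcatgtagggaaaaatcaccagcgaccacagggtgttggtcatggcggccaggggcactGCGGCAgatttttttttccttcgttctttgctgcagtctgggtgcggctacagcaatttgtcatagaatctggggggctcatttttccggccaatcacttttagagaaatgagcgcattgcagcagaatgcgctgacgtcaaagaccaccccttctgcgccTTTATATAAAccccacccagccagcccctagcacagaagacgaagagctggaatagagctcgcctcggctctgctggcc
Peg3 (chr7:6730370-6730669, minus strand): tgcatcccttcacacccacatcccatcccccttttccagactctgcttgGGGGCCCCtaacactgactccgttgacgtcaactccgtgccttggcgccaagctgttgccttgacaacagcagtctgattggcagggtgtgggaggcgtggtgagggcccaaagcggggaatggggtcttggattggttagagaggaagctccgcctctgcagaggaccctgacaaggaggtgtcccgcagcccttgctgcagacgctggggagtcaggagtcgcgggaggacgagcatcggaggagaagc
Plagl1 (chr10:13090582-13090881, plus strand): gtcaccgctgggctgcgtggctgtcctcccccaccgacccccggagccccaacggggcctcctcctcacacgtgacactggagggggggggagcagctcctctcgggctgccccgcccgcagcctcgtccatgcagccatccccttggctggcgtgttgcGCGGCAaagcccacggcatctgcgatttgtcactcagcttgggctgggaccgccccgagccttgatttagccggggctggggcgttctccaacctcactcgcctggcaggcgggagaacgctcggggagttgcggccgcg
The Meg3 window held 13 CpG dinucleotides, the Peg3 window 13 and the Plagl1 window 26, against a median of 7 over all windows. The first Grb10 window held 45 CpG dinucleotides and was 80.0% G and C, against a median of 52.7%.

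Between 14676891 and 21248740 reads per library were recovered from the deposited normalised counts. Several libraries stood apart on lists of marker genes, each summarised as the mean of log2(normalised count + 1). Skeletal muscle genes averaged 9.57 in inhibitor-treated replicate 2 (6.56 and 7.81 in the others), 12.8 in injured replicate 2 (10.5 and 9.37 in the others) and 9.38 in sham replicate 3 (7.71 and 7.32 in the others). Hepatocyte genes averaged 10.9 in 1 library, inhibitor-treated replicate 3, where the 8 other libraries ranged from 3.42 to 4.51. The erythroid mean was 9.56 to 10.8 in the inhibitor-treated libraries, between 2.41 and 2.93 in the injured ones and between 3.27 and 3.89 in the sham ones. Rn7sk, a small RNA without a poly(A) tail, had 16224 to 26973 normalised counts in the inhibitor-treated libraries, between 13.1 and 15.5 in the injured ones and between 4.36 and 28.1 in the sham ones. Any difference in RNA or library preparation that this marks and the inhibitor cannot be told apart, in both comparisons that use the inhibitor-treated libraries. The smooth muscle list was high in every library, at 14.57 to 14.62 in the inhibitor-treated, 12.57 to 12.82 in the injured and 14.35 to 14.69 in the sham libraries. The part of these differences in the results below was not tested, except where values without a library are given.

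By the calls given below, 8 of the 10 growth genes were higher in injured than in sham arteries, and 7 were lower in inhibitor-treated than in injured arteries. By direction alone, 9 of the 10 log2 fold changes were above 0 in the first comparison and 1 in the second. The differences were very unequal in size. H19 was 40.7-fold higher in injured than in sham arteries, Dlk1 18.7-fold and Mest 8.46-fold, while Cdkn1c and Ndn were 1.57-fold and 1.50-fold higher. The large folds rest in part on single libraries. H19 was 23.8-fold higher without injured replicate 2 and Mest 5.13-fold without injured replicate 3. Dlk1 was 12.7-fold higher without injured replicate 1 and 29.2-fold without sham replicate 3. Igf2, the fetal growth factor of the group, was within 1.06-fold of its sham mean, and Peg3 was lower. By limma's fit across all genes of a table, with Benjamini-Hochberg adjustment and a threshold of 0.05, 8 of the 10 were called higher in injured than in sham arteries and 1, Peg3, lower, where 20.6% of all 16278 genes tested were called higher, 16.8% lower and 37.3% in either direction. Their median log2 fold change was 1.46 and that of all genes was -0.003. In inhibitor-treated against injured arteries 7 were called lower and 1, Peg3, higher, where 18.5% of all 16901 genes were called lower, 17.6% higher and 36.1% in either direction. The median was -1.32 for the 10 genes and 0.006 for all genes. The 2 comparisons share the injured libraries, so a high injured value enters both. In inhibitor-treated against sham arteries none of the 10 was called, where 6.08% of all 16166 genes were (5.15% higher and 0.934% lower); 5 of the 10 had an unadjusted limma p under 0.05, and DESeq2 and the authors' deposited table each called 2. The groups did not overlap for 9 of the 10 genes in injured against sham arteries, where 51.3% of all genes did not, and for 8 of the 10 in inhibitor-treated against injured arteries, where 51.6% did not. Because these contrasts were known when the genes were chosen, nothing is read from these counts. In a bulk library fewer cells of a type and less RNA per cell cannot be told apart, here and below.

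**Figure D1:**
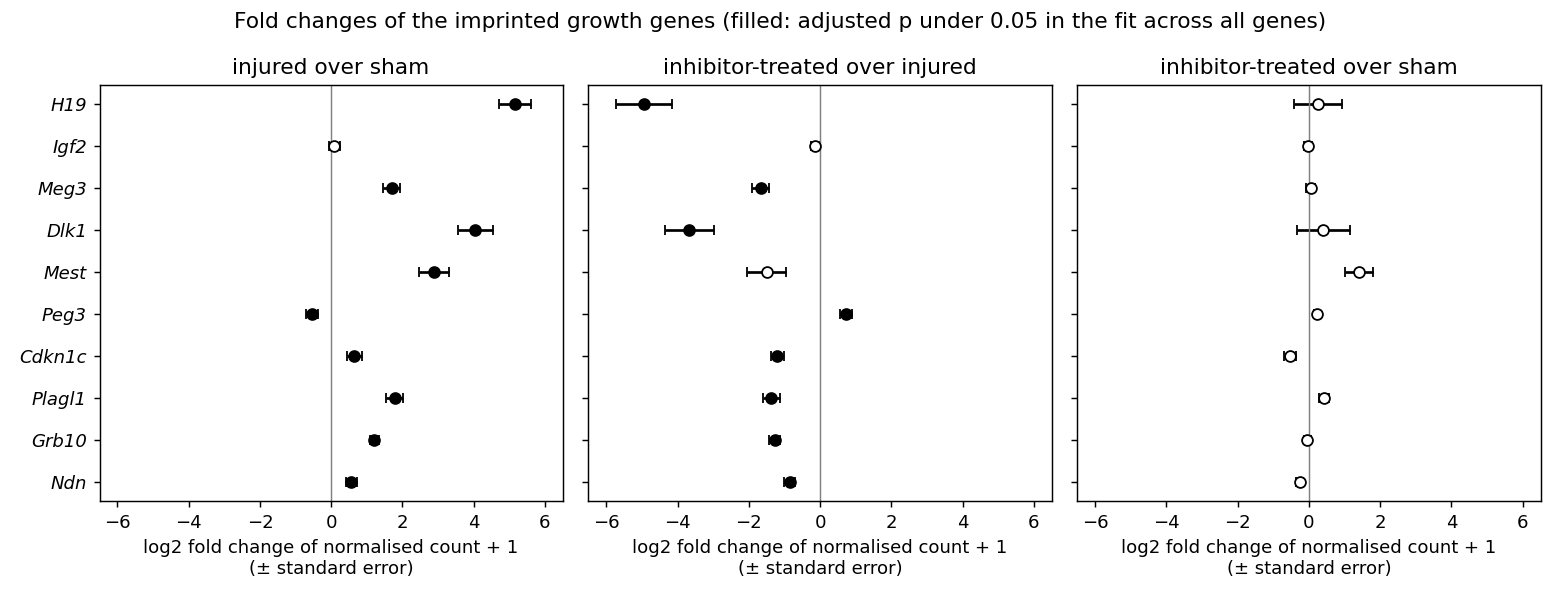
Log2 fold change of normalised count + 1 with its standard error for each of the 10 genes (3 libraries per group), for injured over sham, inhibitor-treated over injured and inhibitor-treated over sham arteries; filled points passed the adjusted threshold of 0.05 in the fit across all genes. H19 lies at 5.17, -4.93 and 0.25 in the 3 panels, and Peg3 lies on the side of 0 opposite to most of the other genes in the left and middle panels.

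H19, a noncoding RNA abundant in fetal tissues that restrains growth and is the precursor of miR-675, had the widest range. Its normalised counts, set on 1 scale over the 9 libraries, were 72.1, 604 and 290 in the inhibitor-treated libraries, 5561, 15380 and 4313 in the injured libraries and 181, 148 and 290 in the sham libraries. Every injured library was above every other library, and the 3 injured values were themselves up to several-fold apart. Its log2 fold change was 5.17 ± 0.45 (SE) in injured over sham arteries and -4.93 ± 0.78 in inhibitor-treated over injured arteries. Without injured replicate 2, the library highest in H19 and in skeletal muscle markers, these were 4.61 and -4.39. The second moved further with the inhibitor-treated libraries, to -4.09 without replicate 1 and to -5.62 without replicate 2. H19 alone made up 47.1% of the summed normalised counts of the 10 genes in injured replicate 2, 16.2% and 17.2% in the other injured libraries, 0.781% to 5.37% in the inhibitor-treated libraries and 1.53% to 2.81% in the sham libraries.

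Meg3, a nuclear noncoding RNA known as a growth suppressor in human tumours, lay at 3538, 4487 and 3769 in the inhibitor-treated libraries, 18251, 9658 and 10965 in the injured libraries and 3218, 4160 and 4115 in the sham libraries. The injured libraries were again apart from the rest, and the inhibitor-treated and sham ranges overlapped. The log2 fold change was 1.70 ± 0.24 in injured over sham and -1.67 ± 0.24 in inhibitor-treated over injured arteries. The order of the injured libraries was not that of H19, since Meg3 was highest in injured replicate 1 and H19 in injured replicate 2.

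**Figure D2:**
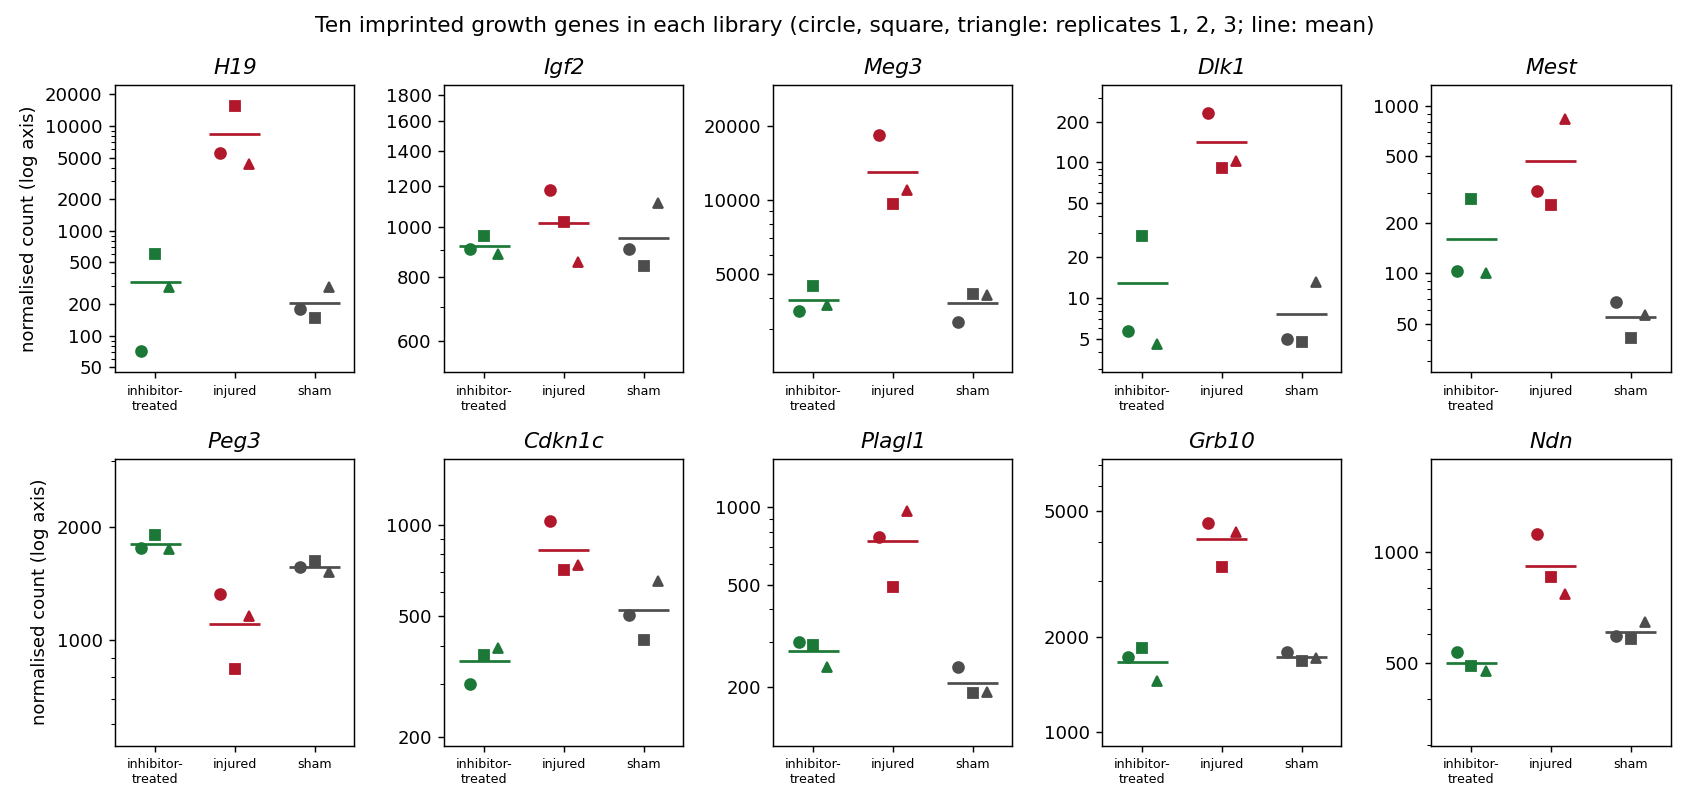
Normalised count (log axis, a separate range for each gene) of the 10 genes in each of 9 libraries, with circles, squares and triangles for replicates 1, 2 and 3 and a line for the group mean. H19, Meg3 and Grb10 have all 3 injured libraries above the other 6, Igf2 overlaps among the 3 groups, and Peg3 has its 3 lowest values in the injured libraries.

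Igf2, the insulin-like growth factor that signals through the IGF1 and insulin receptors, did not follow its neighbour H19. It lay at 905, 957 and 885 in the inhibitor-treated libraries, 1174, 1020 and 852 in the injured libraries and 905, 837 and 1111 in the sham libraries. The 3 groups overlapped, with log2 fold changes of 0.09 ± 0.16 in injured over sham, -0.13 ± 0.13 in inhibitor-treated over injured and -0.03 ± 0.11 in inhibitor-treated over sham arteries. With scaling on ribosomal protein genes the first 2 were -0.13 and 0.21. The ratio of H19 to Igf2 normalised counts was 0.0797, 0.632 and 0.328 in the inhibitor-treated libraries, 4.74, 15.1 and 5.06 in the injured libraries and 0.200, 0.176 and 0.261 in the sham libraries. The Igf2 counts of the 9 libraries lay between 837 and 1174, so the ratio varied mostly with H19.

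Partners of Igf2 were counted from a list of 16 genes of IGF and insulin signalling and growth arrest, of which 15 were tested. This list and the other gene lists below were made with earlier results of these data known. Most genes named from them have the largest called changes. Their adjusted p-values are therefore a description of these libraries and not independent tests. After injury 4 were called higher and 4 lower (53.3% called, against 37.3% of all genes, with a median log2 fold change of -0.11). Igf1, the postnatal growth factor, averaged 1321 ± 313 normalised counts in inhibitor-treated, 10265 ± 2625 in injured and 1294 ± 197 in sham libraries (SD, n = 3 each). It rose by 2.96 ± 0.19 on the log2 scale in injured against sham arteries (limma adjusted p = 2.38e-05) and fell by 2.95 ± 0.23 in inhibitor-treated against injured arteries (adjusted p = 0.000152). The receptors were lower after injury: Insr, the insulin receptor, fell by 0.67 ± 0.10 (limma adjusted p = 0.00101) and Igf1r by 0.48 ± 0.16 (adjusted p = 0.0444). Irs2, an adaptor of both receptors, fell by 1.02 ± 0.16 and Grb14, an adaptor related to Grb10 that inhibits the insulin receptor, by 1.40 ± 0.16 (limma adjusted p = 0.00131 and 0.000243). Cdkn1a, a cell cycle inhibitor related to Cdkn1c, rose by 0.89 ± 0.19, Notch1 by 0.95 ± 0.19 and Igf2bp2, an RNA-binding protein that binds Igf2 mRNA, by 0.89 ± 0.22. Igf2r, which takes up IGF2 for degradation and is itself imprinted in the mouse, rose by 0.50 ± 0.14 (limma adjusted p = 0.0237), and it was singled out after its values were seen.

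In inhibitor-treated against injured arteries 5 of these 15 partner genes were higher and 3 lower (53.3% called, against 36.1% of all genes, median 0.10). Grb14 rose by 1.41 ± 0.14, Irs2 by 1.20 ± 0.16, Insr by 0.64 ± 0.12, Igf1r by 0.59 ± 0.14 and Cdkn1b, a further cell cycle inhibitor, by 0.36 ± 0.11 (limma adjusted p between 0.000407 and 0.0383). Igf2bp2 fell by 0.94 ± 0.20 and Pik3r1, the regulatory subunit of phosphoinositide 3-kinase, by 0.42 ± 0.13 (limma adjusted p = 0.00993 and 0.0399). In inhibitor-treated against sham arteries none of the 15 passed limma's test, and 4 had an unadjusted p under 0.05.

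Dlk1, a membrane ligand of the Notch ligand family that restrains differentiation of fat and muscle precursors, was almost absent outside the injured libraries. It lay at 5.70, 28.4 and 4.54 in the inhibitor-treated libraries, 233, 91.0 and 103 in the injured libraries and 5.01, 4.69 and 13.1 in the sham libraries. All injured values were above all others, and inhibitor-treated replicate 2 and sham replicate 3 were the highest of their groups. The log2 fold change was 4.05 ± 0.49 in injured over sham and -3.67 ± 0.69 in inhibitor-treated over injured arteries. Without inhibitor-treated replicate 2 the second was -4.43. At these low counts the added pseudocount of 1 understates the change.

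Dlk1 and Meg3 belong to the cluster that ends at Dio3, in which Meg3, Rian and Mirg are maternally expressed noncoding RNAs hosting small RNAs, and Dlk1, Rtl1 and Dio3 are paternally expressed protein-coding genes. For each of the 6 genes the 3 injured libraries lay above the 6 others. This is a description, since Dlk1 and Meg3 were chosen on these comparisons, and 51.3% and 51.6% of all genes did not overlap in them. The 4 genes beside Dlk1 and Meg3 were singled out for their place in the cluster after their values were seen, other than Rian in the comparison of inhibitor-treated with injured arteries. Rian lay at 1040, 1276 and 1045 in the inhibitor-treated libraries, 4203, 2407 and 3637 in the injured libraries and 1271, 1271 and 1160 in the sham libraries. It rose by 1.42 ± 0.19 in injured against sham arteries (limma adjusted p = 0.000668) and fell by 1.57 ± 0.21 in inhibitor-treated against injured arteries (adjusted p = 0.00125). Mirg rose by 1.33 ± 0.29 and fell by 1.31 ± 0.34 in the same comparisons (limma adjusted p = 0.00723 and 0.0212). The Meg3 to Rian ratio of normalised counts stayed between 2.53 and 4.34 over the 9 libraries, with 3.40 to 3.61 in inhibitor-treated, 3.02 to 4.34 in injured and 2.53 to 3.55 in sham libraries.

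The paternally expressed genes of the cluster were low. Rtl1, a retrotransposon-derived gene of placenta and muscle, averaged 6.78 ± 1.34 normalised counts in inhibitor-treated, 47.7 ± 34.2 in injured and 4.13 ± 3.02 in sham libraries (SD, n = 3 each). Dio3, the deiodinase that inactivates thyroid hormone, lay at 0, 2.75 and 0 in the inhibitor-treated libraries, 21.5, 25.6 and 15.5 in the injured libraries and 2.00, 3.52 and 0 in the sham libraries. Both passed the filter on low values only through the injured libraries and are absent from the table of inhibitor-treated and sham arteries, so their difference from the injured libraries is given without a test.

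**Figure D3:**
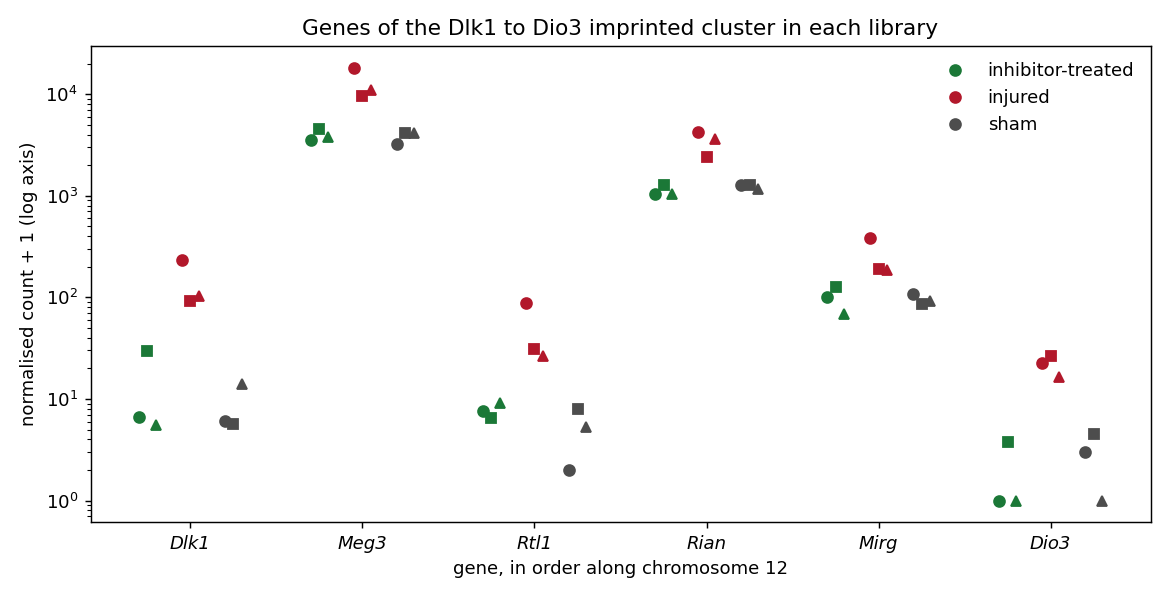
Normalised count + 1 (log axis) of 6 genes of the Dlk1 to Dio3 cluster, in their order along chromosome 12, in each of 9 libraries (circles, squares and triangles are replicates 1, 2 and 3). For each gene the 3 injured libraries lie above the 6 others, and levels span from 0 normalised counts for Dio3 to 18251 for Meg3.

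Mest, a paternally expressed enzyme of the alpha/beta hydrolase family linked to fat expansion and fetal growth, was the gene with the largest remainder in inhibitor-treated arteries. It lay at 103, 279 and 99.97 in the inhibitor-treated libraries, 309, 256 and 837 in the injured libraries and 67.1, 41.0 and 56.6 in the sham libraries. Every injured and every inhibitor-treated library was above every sham library, and inhibitor-treated replicate 2 lay within the injured range. The log2 fold change was 2.88 ± 0.42 in injured over sham arteries, -1.50 ± 0.54 in inhibitor-treated over injured arteries and 1.40 ± 0.39 in inhibitor-treated over sham arteries. The last 2 did not pass the threshold. Without inhibitor-treated replicate 2, the difference from injured arteries was -1.98 and was called, and the difference from sham arteries was 0.92 and was not called.

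Of the genes that brake growth inside the cell, Grb10, an adaptor that binds the insulin and IGF1 receptors and dampens their signal, lay at 1724, 1836 and 1444 in the inhibitor-treated libraries, 4574, 3333 and 4298 in the injured libraries and 1794, 1674 and 1717 in the sham libraries. The injured libraries were apart from the rest, by a log2 fold change of 1.21 ± 0.14 over sham, and inhibitor-treated arteries differed from injured ones by -1.28 ± 0.15. Cdkn1c, the cyclin-dependent kinase inhibitor p57, lay at 299, 373 and 394 in the inhibitor-treated libraries, 1036, 710 and 740 in the injured libraries and 505, 419 and 652 in the sham libraries. The 3 groups of Cdkn1c did not overlap, with the inhibitor-treated libraries lowest. Its log2 fold change was 0.65 ± 0.20 in injured over sham and -1.20 ± 0.18 in inhibitor-treated over injured arteries. The call against sham was lost without injured replicate 1 (0.48), without sham replicate 1 or 2 (0.64 and 0.50) and with scaling on ribosomal protein genes (0.43).

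Plagl1, a zinc finger transcription factor that induces cell cycle arrest and regulates other imprinted genes in the mouse, lay at 299, 290 and 239 in the inhibitor-treated libraries, 767, 488 and 965 in the injured libraries and 238, 189 and 192 in the sham libraries. No injured library reached down to the others, and the log2 fold change was 1.78 ± 0.24 in injured over sham and -1.37 ± 0.25 in inhibitor-treated over injured arteries. Ndn, a protein of the MAGE family that suppresses proliferation in neurons and other cells, lay at 537, 491 and 478 in the inhibitor-treated libraries, 1122, 856 and 773 in the injured libraries and 595, 582 and 648 in the sham libraries. The groups of Ndn did not overlap, and its differences were small, at 0.57 ± 0.15 in injured over sham and -0.85 ± 0.15 in inhibitor-treated over injured arteries. Its call against sham was lost without sham replicate 1 or 2 (0.55 and 0.54), with scaling on ribosomal protein genes (0.35) and without injured replicate 2 and sham replicate 3 (0.65). In inhibitor-treated against injured arteries its call was lost with ribosomal scaling (-0.50).

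Peg3, a zinc finger protein of the paternal genome known for effects on growth and maternal behaviour, differed in the other direction. It lay at 1760, 1901 and 1753 in the inhibitor-treated libraries, 1327, 839 and 1158 in the injured libraries and 1570, 1624 and 1516 in the sham libraries. The injured libraries were lowest without overlap, with a log2 fold change of -0.53 ± 0.17 over sham and 0.73 ± 0.17 in inhibitor-treated over injured arteries. The lowest value was in injured replicate 2. Without that library the difference of injured from sham arteries was -0.35 and was not called, and it also lost its call without any 1 of the sham libraries (-0.51 to -0.56). In inhibitor-treated against injured arteries the call was lost without inhibitor-treated replicate 2 (0.69). Zim1, a maternally expressed zinc finger gene beside Peg3 in the same cluster, went the opposite way. It averaged 29.4 ± 13.4 in inhibitor-treated, 151 ± 46.7 in injured and 22.9 ± 5.17 normalised counts in sham libraries (SD, n = 3 each), rose by 2.65 ± 0.29 in injured against sham arteries (limma adjusted p = 0.000243) and fell by 2.40 ± 0.42 in inhibitor-treated against injured arteries (adjusted p = 0.00397).

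Set against sham arteries, the inhibitor-treated arteries had no call among the 10 genes, yet 5 of the 10 did not overlap between the groups, where 27.9% of all genes did not. Mest (1.40 ± 0.39), Plagl1 (0.43 ± 0.14) and Peg3 (0.21 ± 0.06) were above every sham library, and Cdkn1c (-0.54 ± 0.18) and Ndn (-0.26 ± 0.09) below. H19 (0.25 ± 0.67), Dlk1 (0.40 ± 0.75), Meg3 (0.05 ± 0.12), Igf2 (-0.03 ± 0.11) and Grb10 (-0.05 ± 0.09) overlapped. The inhibitor-treated libraries were far apart in H19, which came to 1.09 without inhibitor-treated replicate 1, the lowest, and to -0.43 without inhibitor-treated replicate 2, the highest. Dlk1 came to -0.35 without inhibitor-treated replicate 2, and to 1.28 without inhibitor-treated replicate 3 and sham replicate 3. With 3 libraries a group, the smallest two-sided p of an exact permutation test on a single gene is 0.10, and none was run. Scaling on ribosomal protein genes called Mest (1.53), Plagl1 (0.57) and Peg3 (0.35) higher, with a median of all genes of 0.13 in place of -0.007.

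Levels of different genes were compared per kb of exon. The exons of all annotated transcripts of a gene were merged, so this length can exceed that of the transcript present. In sham arteries Cdkn1c led with 258 ± 58.0 normalised counts per kb of exon, then Meg3 with 212 ± 29.4 and Grb10 with 190 ± 6.70 (SD, n = 3 each). Igf2 had 166 ± 24.9, Ndn 165 ± 9.51, Peg3 118 ± 4.05 and H19 83.8 ± 30.2 normalised counts per kb. Plagl1 had 26.4 ± 3.56, Mest 13.9 ± 3.32 and Dlk1 1.34 ± 0.839. In injured arteries H19 was first with 3422 ± 2464 normalised counts per kb, followed by Meg3 with 716 ± 256, Grb10 with 448 ± 71.7, Cdkn1c with 406 ± 88.3 and Ndn with 248 ± 49.3, and Dlk1 was again last with 25.1 ± 13.9. In inhibitor-treated arteries Meg3 was first with 217 ± 27.4, Grb10 had 184 ± 22.2, Cdkn1c 174 ± 24.4 and Igf2 160 ± 6.47 per kb. Within the sham group, Cdkn1c and Meg3, Meg3 and Grb10, Grb10 and Igf2, and Igf2 and Ndn differed by less than the larger SD of each pair. In each injured library H19 was above Meg3 per kb, at 2261 against 1009, 6252 against 534 and 1753 against 606 in replicates 1, 2 and 3. In replicates 1 and 3 this order rests on the merged lengths, 2.46 kb for H19 and 18.1 kb for Meg3. Without division by length Meg3 was above H19 there, at 18251 against 5561 and 10965 against 4313. In replicate 2 it was below, at 9658 against 15380. The size of the H19 mean rested in part on injured replicate 2.

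Markers of skeletal muscle, which lies beside the femoral artery, differed between the groups and between the libraries of a group. Of the 16 genes of mature skeletal muscle, 11 were called higher in injured than in sham arteries (median log2 fold change 3.21, with 20.6% of all genes called higher), 3 were called lower in inhibitor-treated than in injured arteries (median -3.38, with 18.5% of all genes called lower), and none of 15 was called against sham. Of the 13 genes of muscle precursors and embryonic muscle, Pax7, Myf5 and Mymx had no level. Of the other 10, 8 are absent from the table of inhibitor-treated and sham arteries and passed the filter on low values only through the injured libraries, so their calls had to fall 1 way and are not counted here. The mean of log2(normalised count + 1) over this list was 1.09, 3.12 and 2.90 in inhibitor-treated libraries, 6.14, 6.44 and 4.39 in injured libraries and 1.44, 1.69 and 2.12 in sham libraries. This mean holds the same 8 genes, so its higher values in the injured libraries were fixed by the filter and are not a result. H19 was highest in the same library as both muscle lists in 3 of 3 groups, Dlk1 and Igf2 in 2 of 3, Meg3, Mest, Peg3, Cdkn1c, Grb10 and Ndn in 1 of 3 and Plagl1 in none. Within the injured group Dlk1 was lowest, at 91.0, in replicate 2, the library highest on both muscle lists. Leaving out injured replicate 2, sham replicate 3 and inhibitor-treated replicate 2, the highest of each group on the skeletal muscle list, left the H19 log2 fold change at 4.89 in injured over sham and -5.07 in inhibitor-treated over injured arteries, and Dlk1 at 4.72 and -4.69. This set of libraries was chosen after the data were seen. With inhibitor-treated replicate 3 left out in place of replicate 2, the values were 4.89 and -4.54 for H19 and 4.72 and -3.48 for Dlk1, and Dlk1 was then not called in inhibitor-treated against injured arteries. These values describe the 2 genes, and the part of muscle RNA in their levels was not tested.

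**Figure D4:**
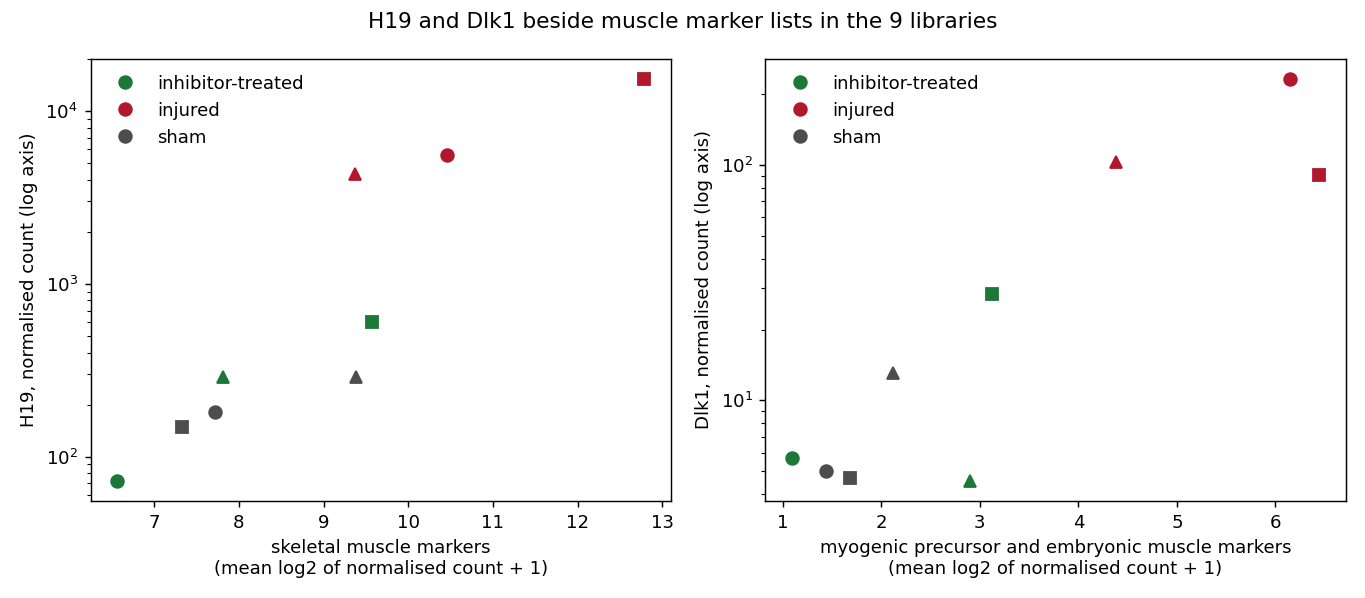
H19 against the mean of the skeletal muscle markers (left) and Dlk1 against the mean of the myogenic precursor and embryonic muscle markers (right) in 9 libraries (log vertical axes, normalised counts; circles, squares and triangles are replicates 1, 2 and 3). Injured replicate 3 and sham replicate 3 have nearly the same skeletal muscle mean, 9.37 and 9.38, with H19 at 4313 and 290. On the myogenic precursor and embryonic muscle list these libraries are at 4.39 and 2.12. Most genes of that list passed the filter on low values only through the injured libraries, so nothing is read from this difference.

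Other cell types also moved with the groups. Of 12 macrophage markers, 11 were higher in injured than in sham arteries and all 12 lower in inhibitor-treated than in injured arteries, where 20.6% of all genes were called higher with injury and 18.5% lower with the inhibitor. Their mean lay at 7.59 to 8.38 in inhibitor-treated, 10.8 to 11.4 in injured and 7.77 to 7.995 in sham libraries. Of 10 markers of dividing cells, 10 were higher with injury and 9 lower with the inhibitor, and 2 were still higher in inhibitor-treated than in sham arteries, where 5.15% of all genes were. Of 13 fibroblast markers, 7 were higher and 1 lower with injury, 1 was higher and 9 lower with the inhibitor, and 5 were lower in inhibitor-treated than in sham arteries, where 0.934% of all genes were. Of 12 endothelial markers 8 were higher with injury and 8 lower with the inhibitor, and of 11 Schwann cell markers 6 were higher and 4 lower. Of 10 adipocyte markers 2 were higher and 3 lower with injury, where 37.3% of all genes were called in either direction. With the inhibitor all 10 were called, 3 higher and 7 lower, where 36.1% of all genes were called. Of 12 smooth muscle markers 11 were lower with injury and 11 higher with the inhibitor, where 16.8% of all genes were called lower and 17.6% higher. H19 was highest in the same library as the macrophage and Schwann cell lists in 3 of 3 groups. Cdkn1c was so in 3 of 3 groups with the fibroblast and hepatocyte lists, and Grb10 with the erythroid list. Dlk1 was so in 2 of 3 groups with the macrophage, Schwann cell, fibroblast, adipocyte, erythroid and hepatocyte lists, as with the muscle lists. Each group has only 3 libraries and many pairs of gene and list were compared, so such matches can arise by chance. The part of each cell type in the levels of the 10 genes was not tested.

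A wider list of 63 other imprinted genes, of which 51 are in a table, went both ways. The 10 genes were chosen on these comparisons, so their shared direction is not set against this list. Several of them are imprinted only in placenta or brain. In injured against sham arteries 13 of 51 rose and 11 fell (47.1% called, against 37.3% of all genes, median log2 fold change 0.10), and in inhibitor-treated against injured arteries 13 rose and 9 fell (43.1%, against 36.1%, median -0.11). Tfpi2, a matrix-bound protease inhibitor, rose by 3.09 ± 0.22 with injury (limma adjusted p = 2.98e-05). Tspan32, a tetraspanin of blood cells, rose by 3.05 ± 0.39, Gatm, an enzyme of creatine synthesis, by 2.20 ± 0.29, and Tnfrsf23, a decoy receptor in the cluster of Cdkn1c, by 2.00 ± 0.19 (limma adjusted p between 0.000113 and 0.000524). Gatm fell by 2.25 ± 0.19, Tfpi2 by 2.19 ± 0.33 and Tnfrsf23 by 2.00 ± 0.18 in inhibitor-treated against injured arteries (limma adjusted p between 0.000224 and 0.00232).

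Among the genes lower after injury, Slc22a2, an organic cation transporter next to Igf2r, lay at 145, 195 and 169 in the inhibitor-treated libraries, 17.9, 16.1 and 15.5 in the injured libraries and 155, 189 and 156 in the sham libraries. It fell by 3.26 ± 0.23 in injured against sham arteries (limma adjusted p = 2.98e-05) and rose by 3.29 ± 0.22 in inhibitor-treated against injured arteries (adjusted p = 8.93e-05). Atp10a, a phospholipid flippase, fell by 1.36 ± 0.16, Cobl, an actin nucleator beside Grb10, by 1.07 ± 0.28, the noncoding Peg13 by 1.07 ± 0.13 and Snrpn, a splicing factor in the cluster of Ndn, by 0.98 ± 0.14 (limma adjusted p between 0.000329 and 0.0164). With the inhibitor Atp10a rose by 1.24 ± 0.16, Cobl by 1.18 ± 0.28 and Peg13 by 1.08 ± 0.13 against injured arteries (limma adjusted p between 0.00083 and 0.014). Genes of 1 cluster thus went both ways, with Ndn higher and Snrpn lower after injury and Grb10 higher and Cobl lower. Kcnq1ot1, the noncoding RNA of the Cdkn1c cluster, averaged 1023 ± 111 in inhibitor-treated, 1433 ± 601 in injured and 1045 ± 102 normalised counts in sham libraries, and did not pass the test in any comparison (limma adjusted p between 0.285 and 0.933). It was singled out after its values were seen.

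In inhibitor-treated against sham arteries 2 of 48 other imprinted genes rose and none fell (4.2% called, against 6.08% of all genes). Peg10, a retrotransposon-derived gene of placental growth, lay at 127, 250 and 256 in the inhibitor-treated libraries, 48.9, 41.7 and 56.7 in the injured libraries and 54.1, 68.0 and 52.3 in the sham libraries. It rose by 1.80 ± 0.28 against sham (limma adjusted p = 0.00799) and by 2.03 ± 0.30 against injured arteries (adjusted p = 0.00207), and its difference of -0.25 ± 0.25 in injured over sham arteries did not pass (adjusted p = 0.466). Tspan32 rose by 2.26 ± 0.40 against sham (limma adjusted p = 0.0157), with a mean too low for the naming rule. Of 7 erythroid markers, 7 were higher in inhibitor-treated than in injured arteries and 6 higher than in sham arteries, in the same libraries as Peg10 and Tspan32, and their part in these values was not tested.

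**Figure D5:**
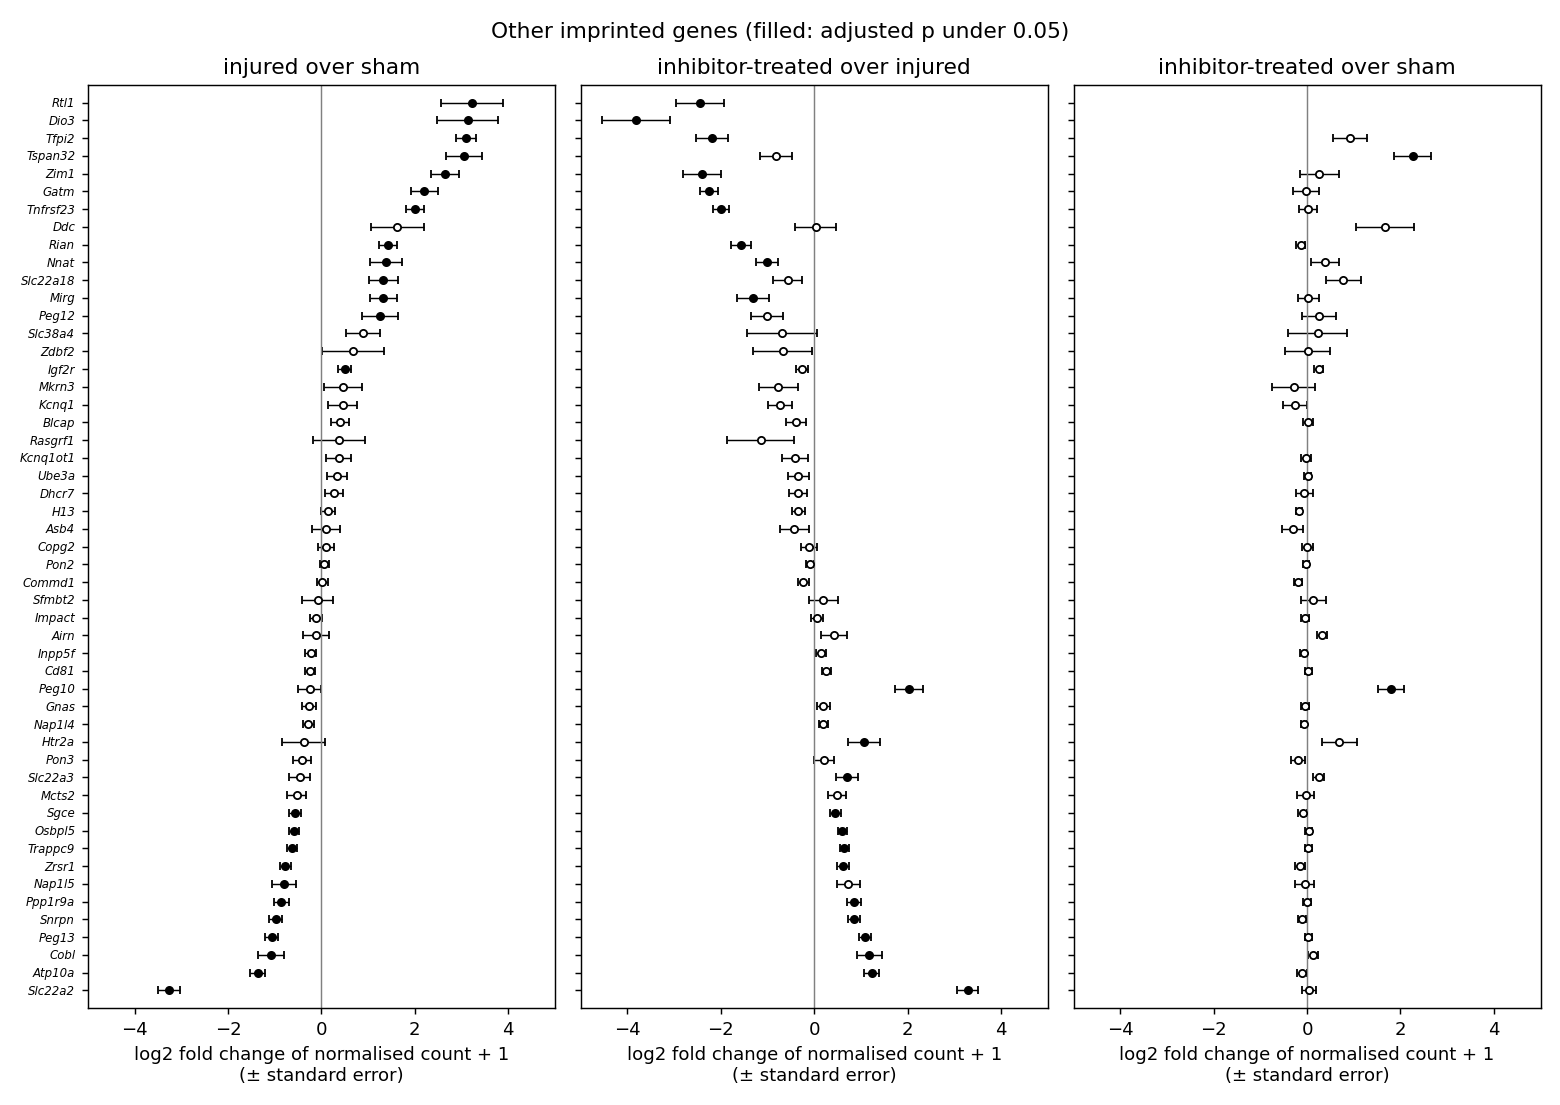
Log2 fold change of normalised count + 1 with its standard error for 51 other imprinted genes, ordered by injured over sham, in the 3 comparisons (3 libraries per group; filled points have an adjusted p under 0.05). The right panel, inhibitor-treated over sham, holds 48 of these genes. In the left panel 13 filled points lie right of 0 and 11 left of it, and in the right panel Peg10 at 1.80 and Tspan32 at 2.26 are the filled points.

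Factors that keep imprints after fertilisation were counted from a list of 20, of which 19 were tested. Of these 3 rose and 1 fell after injury (21.1% called, against 37.3% of all genes). Zfp57, the zinc finger protein that binds the methylated TGCCGC core, averaged 208 ± 12.5 in inhibitor-treated, 430 ± 37.9 in injured and 165 ± 11.7 normalised counts in sham libraries (SD, n = 3 each). It rose by 1.37 ± 0.14 in injured against sham arteries (limma adjusted p = 0.000166) and fell by 1.04 ± 0.12 in inhibitor-treated against injured arteries (adjusted p = 0.000788). Uhrf1, which brings the maintenance methyltransferase to replicating DNA and is high in dividing cells, rose by 2.23 ± 0.29 and fell by 1.68 ± 0.28 in the same comparisons (limma adjusted p = 0.000581 and 0.00346). Arid4a, a chromatin protein, rose by 0.58 ± 0.12 and fell by 0.49 ± 0.12, and Rbbp4, a histone-binding subunit of several chromatin complexes, fell by 0.52 ± 0.10 and rose by 0.43 ± 0.08 (limma adjusted p between 0.00384 and 0.0162). Trim28, the corepressor that ZFP57 recruits, rose by 0.28 ± 0.09 in inhibitor-treated against injured arteries (limma adjusted p = 0.0437). None of 18 passed limma's test in inhibitor-treated against sham arteries, and 2 had an unadjusted p under 0.05.

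The genes whose pattern over the 9 libraries was most like that of H19, Meg3 and Igf2 were found by the root-mean-square difference of centred log2 levels, among 11277 genes with a mean of at least 100 normalised counts. For H19 these were Jchain, the joining chain of secreted immunoglobulins (0.456), Ccl8, a chemokine (0.465), and Fcgr1, a macrophage Fc receptor (0.623), on a scale where H19 itself varied by 2.55 around its mean. Jchain lay at 28.5, 176 and 55.4 in the inhibitor-treated libraries, 1967, 2312 and 965 in the injured libraries and 47.1, 43.4 and 47.9 in the sham libraries. For Meg3 they were Col1a2, a chain of type I collagen (0.182), Ttyh2, an ion channel family member (0.189), and Shox2, a homeobox factor (0.194), against a variation of 0.840 for Meg3. Col1a2 lay between 47242 and 53634 normalised counts in the inhibitor-treated libraries, 125557 and 223504 in the injured libraries and 49445 and 58191 in the sham libraries. For Igf2 they were Apopt1 (0.0658), Mpst (0.0697) and Tmem14c (0.0775), and Igf2 itself varied by 0.161. The likeness is over 9 libraries of 3 groups and describes these libraries only.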

How the data were processed

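RNA-seq gene tables were used, one for each pair of groups, with 6 libraries each. The labels number replicates within groups. Per the file headers, the library columns hold normalised counts; the authors divided each library's counts by 1 factor per library, separately in each table, as read from the values, so the deposited values are a normalised signal. The value of 1 read was found in each column from its low values, and dividing by it gave whole reads within 0.01 of a read for 100% of values. No 2 replicates agreed within sampling noise (chi-square per degree of freedom of 11.6 to 103). The authors' deposited log2 fold changes, p-values and adjusted p-values were used only as an alternative. Per the submitters' processing notes the build was mm10 (GRCm38), with aligner, counter and test not given in the sources used here.

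Levels over all 9 libraries were rescaled from the recovered reads with median-of-ratios factors over 16750 genes, since the tables were normalised separately; fold changes, with their own tables' means behind them, came from each table alone. Each table was fitted in R 4.3.3 by limma 3.58.1, whose two-sided moderated test used group alone and a variance trend, after taking log2 of the normalised count plus 1. Genes needed a mean of at least 10, and p-values were adjusted by Benjamini-Hochberg over all genes, with a threshold of 0.05; edgeR 4.0.16 and DESeq2 1.42.0 on the recovered reads were alternatives. This log2 scale understates changes of low genes. Errors of fold changes are standard errors and errors of levels are standard deviations over 3 libraries. The fit was tested on simulated data. Exon lengths came from GENCODE M21, with the exons of all transcripts of a gene merged, and sequences from RefSeq.

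The 10 genes and all gene lists were chosen with earlier results of these data known, and the lists are hand-made. Named from the lists were, in each comparison and direction, the up to 5 called genes with the largest change and a mean of at least 50, and for H19, Meg3 and Igf2 the 3 most alike genes. Same-numbered libraries did not deviate together in every pair (correlations from -0.159 to 0.388), so the numbers were not taken as pairs.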

Additional observations from a re-analysis of the deposited data

How the results depend on the processing

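Of the alternatives for the 10 genes, 517 values kept their direction and side of the threshold, 23 lost a call, 12 gained one and 17 changed sign; the causes were not tested. Scaling on ribosomal protein genes moved the median of all genes to -0.22 in injured over sham, 0.35 in inhibitor-treated over injured and 0.13 in inhibitor-treated over sham arteries. For injured over sham arteries, Igf2 changed sign with that scaling (-0.13), without injured replicate 1 (-0.026) and without sham replicate 2 (-0.0004). In inhibitor-treated over injured arteries Igf2 changed sign with that scaling (0.21). In inhibitor-treated over sham arteries, where none of the 10 was called, the sign changed for Igf2 with that scaling (0.10), without injured replicate 2, sham replicate 3 and inhibitor-treated replicate 3 (0.11), without injured replicate 2, sham replicate 3 and inhibitor-treated replicate 2 (0.06) and without sham replicate 3 (0.09). It changed for H19 without the last set of libraries (-0.16) and without inhibitor-treated replicate 2 (-0.43), and for Meg3 without inhibitor-treated replicate 2 (-0.05) or sham replicate 1 (-0.069). It changed for Dlk1 with quantile normalisation (-0.94) and without inhibitor-treated replicate 2 (-0.35), and for Grb10 with ribosomal scaling (0.09), without the first set of libraries (0.052) and without inhibitor-treated replicate 3 (0.05). Leaving out libraries took values in that comparison up to 1.09 for H19, 0.14 for Meg3 and 1.28 for Dlk1, and down to -0.12 for Grb10. With a mean of at least 50, Dlk1 gave no value there.

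Calls among the 10 genes numbered 6 to 9 in injured against sham arteries when 1 library was left out (6 without sham replicate 1 or 2, against 9), 8 to 8 in inhibitor-treated against injured arteries (without inhibitor-treated replicate 2, Peg3 lost its call and Mest gained one), and 0 in inhibitor-treated against sham arteries. Inhibitor-treated against injured arteries gave 5 calls, against 8, without injured replicate 2, sham replicate 3 and inhibitor-treated replicate 3; Dlk1 (-3.48), Peg3 (0.56) and Ndn (-0.86) lost theirs. Without replicate 2 of the inhibitor-treated group in place of 3, Peg3 (0.50) and Ndn (-0.88) lost theirs. Inhibitor-treated against sham arteries gave 3 with ribosomal scaling, and 2 each, Mest higher and Cdkn1c lower, with DESeq2 and in the authors' deposited table, against 0. For the other imprinted genes in that comparison the count was 4 with ribosomal scaling, 1 with a mean of at least 50, 1 without either set of libraries, and 1 to 3 when 1 library was left out, against 2. Mest in inhibitor-treated against injured arteries was called in 5 alternatives. With the replicate number as a block, which does not pair these samples, the calls among the 10 genes were 9, 8 and 0 in the 3 comparisons, and 25, 21 and 2 among the other imprinted genes, against 24, 22 and 2.

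With 14676891 to 21248740 reads per library, depth limits Dlk1, Rtl1 and Dio3, which had few normalised counts outside the injured libraries.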
